A study of Homo sapiens with 3 samples.

Results

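The stretch described here is the chromosome 8 sequence on the centromeric side of the captured 8q24.21 breast cancer risk region, from 126750000 to 127886759 (GRCh37), with the gene FAM84B near 127564683 to 127570711. It was made of 346 HindIII fragments, the pieces left by the restriction enzyme used to cut the fixed chromatin, out of 3033 target fragments of chromosome 8 and 17969 in the whole series. A fragment was a member when its midpoint lay in that interval, and its contacts with every captured fragment of chromosome 8 were used. The interval had been chosen because its contacts were higher in the breast lines than in GM06990. Those contact counts, and everything derived from that contrast, are therefore given as a description without a test.

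In capture Hi-C, pieces of chromatin that touch when the cells are fixed are cut and ligated to each other, and ligation products with a piece of a chosen region are pulled out by hybridisation and sequenced. Each count is thus a ligated read pair that joins that region to another piece, and is called a contact here. The libraries came from BT483, a line from a primary invasive ductal breast carcinoma, from SUM44, a breast cancer line from an effusion, and from GM06990, a lymphoblastoid line grown from B lymphocytes. All 3 lines were fixed for 5 min with 2% formaldehyde. BT483 was grown in 20% serum with insulin and lysed with trypsin. SUM44 was grown in 10% serum with 1 nM estradiol and GM06990 in 15% serum, and both were lysed in a dounce homogeniser. Each line had 2 replicates, and nothing stated that they were separate cultures, so spreads and p-values measure only the difference between these libraries. Line, medium and lysis cannot be told apart in this design, and the 2 breast lines are single tumours.

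The 8q24.21 region lies in a long interval with few protein-coding genes, which also holds several long non-coding RNA genes, with the MYC oncogene on its telomeric side. Such intervals are known to carry enhancers, sequences that act on a distant promoter when the chromatin folds the pair together. Contact between a pair of sequences falls steeply with the distance along the chromosome and is commoner within a topological domain, a block of chromatin that folds on itself, than across its boundary. FAM84B, now named LRATD2, encodes a protein of the LRAT domain family. In the RefSeq order of genes, taken from GRCh38.p14 for names only, LRATD2 was the single protein-coding gene between TRIB1, a pseudokinase gene on the centromeric side, and POU5F1B, a retrotransposed copy of the pluripotency gene POU5F1. The genes between those flanks also included 17 long non-coding RNA genes, among them LINC00861 on the TRIB1 side of LRATD2 and PCAT1, PRNCR1, CASC8 and CCAT2 on the POU5F1B side.

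Contacts of the captured region with the stretch numbered 14366 and 69638 in the BT483 replicates, 86775 and 78025 in those of SUM44, and 18891 and 15780 in those of GM06990. They came out of near cis contacts, those within 5 Mb of the capture and outside it, of 87714 and 413006 in BT483, 422044 and 377102 in SUM44, and 148205 and 137456 in GM06990. The first BT483 replicate was the shallowest library. Among the 346 fragments, 344 had at least 50 contacts in 1 line. The remaining 2, at 127327859 to 127329565 and at 127814234 to 127816124, had 3 contacts or fewer in any line.

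The stretch took a larger part of the near cis contacts in both breast lines than in GM06990. Its share was 16.4% and 16.9% in the BT483 replicates (mean 16.6% ± 0.342, SD, n = 2), 20.6% and 20.7% in those of SUM44 (20.6% ± 0.0919), and 12.7% and 11.5% in those of GM06990 (12.1% ± 0.896). The exact Clopper-Pearson 95% intervals of the first replicates, which cover counting error only, ran from 16.1% to 16.6% in BT483, from 20.4% to 20.7% in SUM44 and from 12.6% to 12.9% in GM06990. The 3 lines did not overlap, and the gap between any 2 of them was larger than the spread between replicates. The stretch of the same length on the telomeric side of the capture, with 344 fragments, ran the other way. It held 34.8% and 31.7% of the near cis contacts in BT483, 30.1% and 30.4% in SUM44, and 49.1% and 48.6% in GM06990. For each contact on the telomeric side, the FAM84B side thus had 0.471 and 0.531 contacts in BT483, 0.683 and 0.680 in SUM44, and 0.259 and 0.236 in GM06990. Within the centromeric near cis contacts alone the lines were less apart. The stretch held 53.3% and 48.6% of these in BT483, 61.1% and 61.3% in SUM44, and 50.8% and 43.3% in GM06990, so that BT483 and GM06990 overlapped.

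**Figure D1:**
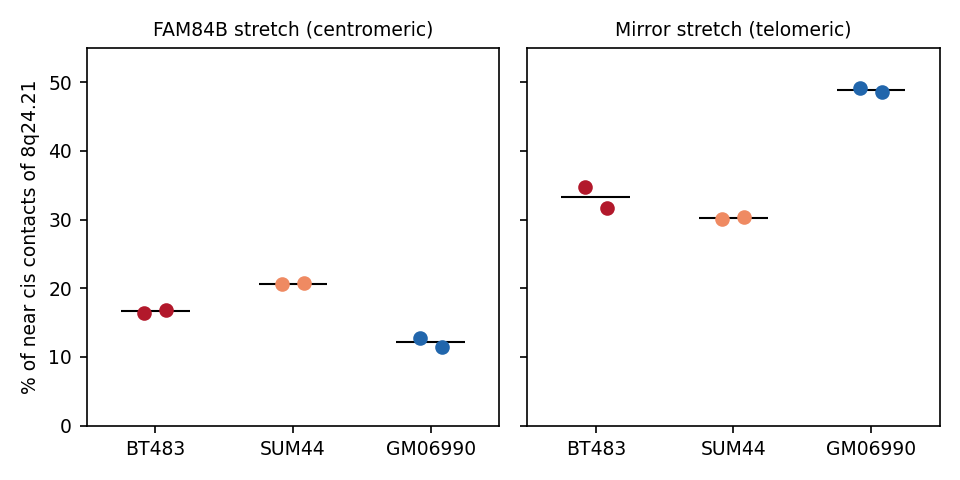
Share of the near cis contacts of 8q24.21 (percent) in the FAM84B stretch, left, and in the telomeric stretch of the same length, right, for BT483, SUM44 and GM06990. Points are replicates and lines are means (n = 2); in the FAM84B stretch the GM06990 replicates, at 12.7% and 11.5%, lie below those of both breast lines, and in the telomeric stretch they lie above them.

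To take out the fall of contact with distance, each count was set against a distance background: a negative binomial regression, fitted per replicate over both sides of the locus, of the count of each pair on its distance and on how many trans contacts, with other chromosomes, its captured fragment had, a gauge of capture efficiency. A value of 1 is the count expected for that distance. The stretch lay below its background in every library. It held 0.649 and 0.689 times the expected contacts in BT483, 0.780 and 0.778 times in SUM44, and 0.423 and 0.382 times in GM06990. The telomeric stretch was above the background, at 1.31 and 1.29 times in BT483, 1.13 and 1.13 times in SUM44, and 1.56 and 1.59 times in GM06990. Because 1 curve serves both sides, a deficit on the centromeric side and an excess on the telomeric side are not separate measurements. Of the 344 fragments, 26 stood above the background in BT483, 54 in SUM44 and 2 in GM06990, by the mean of the replicates. Against this shared curve, the higher contact of the breast lines with the stretch as a whole was a smaller deficit rather than an excess. How much of the deficit in GM06990 goes with its telomeric excess was not tested.

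Fragment by fragment, the change was spread over the whole stretch. With edgeR's quasi-likelihood fit over the 5466 fragments of the 3 risk loci and the log of the expected count as offset, the median log2 change over the 344 fragments was 0.82 for BT483 over GM06990 and 1.01 for SUM44 over GM06990, against 0.06 and 0.09 over all fragments. Both comparisons share the GM06990 libraries, and these values restate how the interval was chosen, so no p is given. With the near cis totals, the trans totals or TMM factors as scaling, the median was 0.69, 0.22 and 0.49 for BT483, and 0.92, 2.26 and 0.98 for SUM44. In 282 fragments all 4 breast replicates lay above both GM06990 replicates, as in 21.3% of all fragments tested. In 1 fragment, from 126909831 to 126914230, all 4 lay below, at 0.66 and 0.64 times the background in BT483 and SUM44 against 0.83 times in GM06990, as means of the replicates.

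Very short fragments carried the widest ratios. The 14 bp fragment from 127008585 to 127008598 had 10 and 46 contacts in BT483 and 63 and 48 in SUM44. In GM06990 it had 1 and 1, and the log2 changes came to 3.87 ± 0.66 (SE) and 4.14 ± 0.61. These changes rest on a floor count in GM06990, so their size is uncertain and is given as a description only. This fragment met the minimum count for testing in the breast lines alone, as did the 9 bp fragment given next. Both are part of the split by length below. Contacts of the 9 bp fragment from 127408364 to 127408372 numbered 12 and 56 in BT483, 83 and 47 in SUM44, and 3 and 4 in GM06990. Both fragments were depleted in every line, at 0.22, 0.26 and 0.014 times the background for the first in BT483, SUM44 and GM06990 and at 0.20, 0.22 and 0.032 times for the second. The 54 tested fragments shorter than 500 bp had median log2 changes of 1.22 in BT483 and 1.48 in SUM44, against 0.77 and 0.97 in the 290 longer ones. Across the 344 fragments, Spearman's rho of the change with length was -0.35 for BT483 and -0.45 for SUM44. Length also moved with the level within a line, with rho of 0.33 in BT483, 0.18 in SUM44 and 0.42 in GM06990. Fragments share their libraries, so these are descriptions. A fragment with few contacts can meet the minimum through the breast lines alone, which favours a high change over GM06990. The split and the rho of the change therefore cannot tell length from that filter. The part of length in the change was not tested further.

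The profile along the stretch was alike in shape in the 3 lines and differed in height. Over 344 fragments, Spearman's rho of the log2 ratio to background was 0.73 between BT483 and SUM44, 0.72 between BT483 and GM06990, and 0.68 between SUM44 and GM06990. Between replicates it was 0.69 in BT483, 0.92 in SUM44 and 0.78 in GM06990. In 50 kb windows, all 4 breast replicates lay above both GM06990 replicates in 23 of 23 windows, a count that restates how the interval was chosen. BT483 ranged over windows between 0.451 and 0.995 times the background in its first replicate and between 0.4999 and 0.989 in its second. SUM44 ranged between 0.636 and 1.01 and between 0.607 and 1.04, and GM06990 between 0.285 and 0.707 and between 0.271 and 0.642. Both SUM44 replicates lay above both BT483 replicates in 17 windows, and both BT483 replicates above both of SUM44 in 3. None of these window counts was made elsewhere at the locus.

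The windows at FAM84B and next to the capture were local highs in each line, and the lowest windows differed. The window next to the capture, which begins at 127850001, was the highest in GM06990 at 0.675 ± 0.0458 times the background (SD, n = 2) and stood at 0.992 ± 0.00427 in BT483 and 1.00 ± 0.0395 in SUM44. The window that holds FAM84B, which begins at 127550001, came to 0.762 ± 0.184 in BT483, 1.02 ± 0.0185 in SUM44 and 0.545 ± 0.0134 in GM06990. Its neighbours on both sides were lower in each line, at 0.570 and 0.532 in BT483, 0.753 and 0.685 in SUM44, and 0.383 and 0.340 in GM06990. The widest ratios lay farther out. The window that begins at 127200001 reached 0.584 ± 0.000399 times the background in BT483, 0.734 ± 0.0132 in SUM44 and 0.278 ± 0.00971 in GM06990, a 2.10-fold and a 2.64-fold difference from GM06990, which was at its lowest there. The lowest window of BT483 began at 127750001, at 0.508 ± 0.0119, and that of SUM44 at 127700001, at 0.622 ± 0.0208. For BT483 the window at 127200001 was among the 3 widest ratios together with the windows that begin at 127250001 and 127000001, both 2.10-fold, and for SUM44 with those that begin at 127300001 and 127250001, 2.67-fold and 2.51-fold. The narrowest ratios for BT483 were 1.34-fold, 1.40-fold and 1.42-fold, in the windows that begin at 127700001, 127550001 and 126800001. For SUM44 they were 1.36-fold, 1.44-fold and 1.49-fold, in those that begin at 126800001, 126750001 and 127850001.

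**Figure D2:**
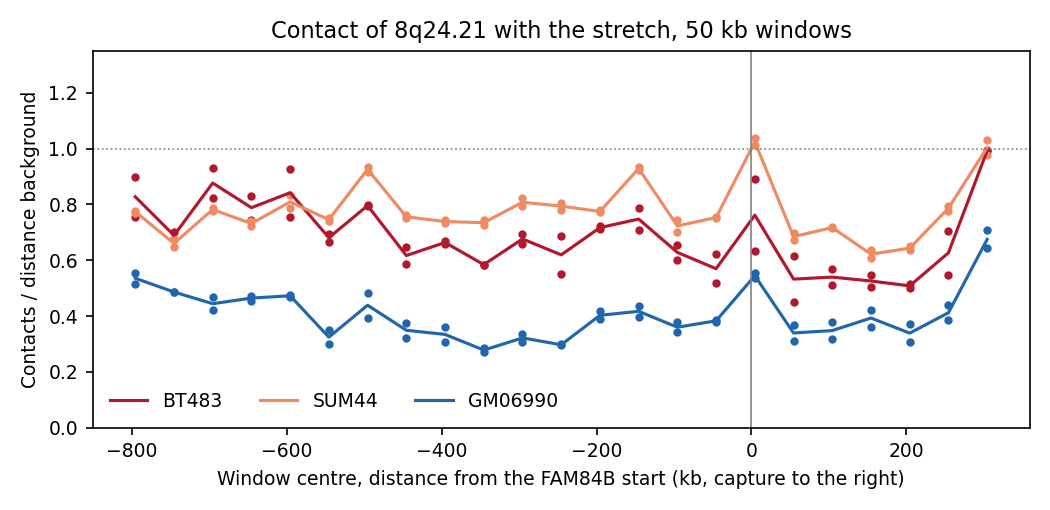
Contacts of 8q24.21 with the stretch over the distance background, in 50 kb windows placed by the distance of their centre from the FAM84B start (kb; the capture lies to the right). Points are replicates, lines are means of 2, and the dotted line is the background; GM06990 lies lowest in all 23 windows, and the FAM84B window stands above its neighbours in each line.

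The fragment that holds the FAM84B start, from 127570006 to 127572751, lay 314 kb from the edge of the capture. It had 50 and 435 contacts in BT483, 408 and 421 in SUM44, and 78 and 72 in GM06990. Over the background this was 0.711 and 1.32 in BT483, 1.11 and 1.28 in SUM44, and 0.518 and 0.520 in GM06990. Both GM06990 values lay below all 4 of the breast lines, and the 2 BT483 replicates lay on either side of 1. The log2 change was 1.08 ± 0.23 (SE) for BT483 over GM06990 and 1.20 ± 0.22 for SUM44 over GM06990, beside medians of 0.82 and 1.01 in the stretch. The value for BT483 rested on its second replicate: it was 0.45 without it and 1.34 without the first.

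The FAM84B start stood above the median fragment of the stretch in every library. Its ratio to the median fragment was 1.09 and 1.93 in the BT483 replicates, 1.46 and 1.67 in those of SUM44, and 1.29 and 1.47 in those of GM06990. The means, 1.51 ± 0.593, 1.56 ± 0.150 and 1.38 ± 0.126, differed by less than the spread of the BT483 replicates. The other fragments over the gene, from 127560005 to 127566876 and from 127566877 to 127570005, had 0.93 and 0.99 times the background in BT483, 0.93 and 1.03 in SUM44, and 0.59 and 0.53 in GM06990. On the far side of the gene from the capture, the long fragments from 127526805 to 127542856 and from 127542857 to 127560004 were lower, at 0.41 and 0.48 in BT483, 0.42 and 0.60 in SUM44, and 0.33 and 0.33 in GM06990. On the near side, the fragments from 127572752 to 127576951 and from 127576952 to 127581725 were as high as the gene, at 1.04 and 0.90 in BT483, 1.25 and 1.08 in SUM44, and 0.67 and 0.63 in GM06990.

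**Figure D3:**
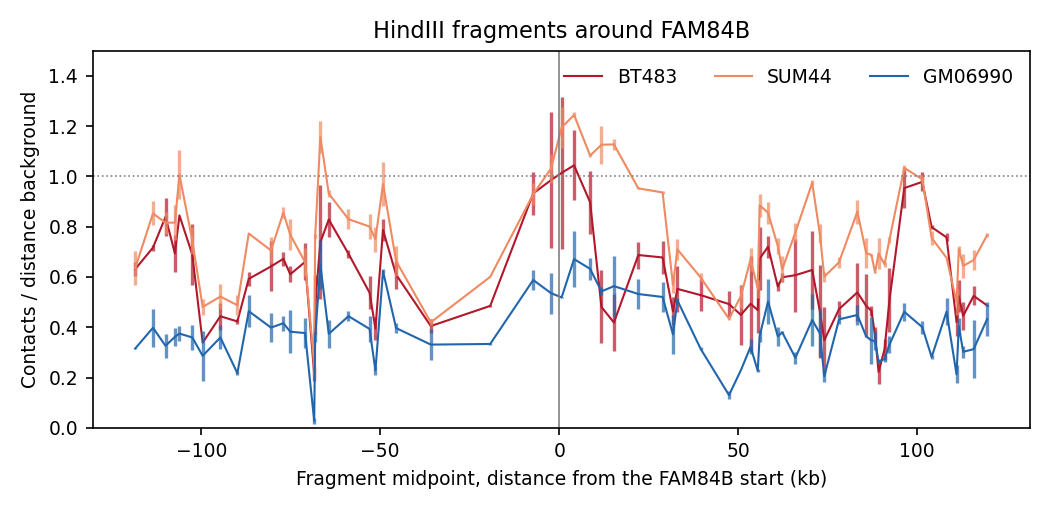
Contacts over the distance background for single HindIII fragments within 120 kb of the FAM84B start, by distance of the fragment midpoint from the start (kb). Lines join means of 2 replicates and vertical bars span the replicates; the fragments at and just beyond the start form a local high in each line, which reaches above the background in SUM44 and, by the mean of its replicates, in BT483. At 11.8 and 15.3 kb BT483 is lower than SUM44.

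The fragments with the highest contact for their distance lay near the capture. The fragment from 127835410 to 127841677, 45.1 kb from the capture, had 261 and 751 contacts in BT483, 1092 and 1011 in SUM44, and 430 and 427 in GM06990. It was above the background in every line, at 1.69 ± 0.24 times in BT483, 1.78 ± 0.014 in SUM44 and 1.43 ± 0.051 in GM06990 (SD, n = 2), and its log2 changes from GM06990 were 0.23 ± 0.15 (SE) and 0.32 ± 0.15. Both turned negative with near cis totals, at -0.35 and -0.19. The fragments from 127841678 to 127845292, from 127856425 to 127861641 and from 127861717 to 127864569 followed, with 1.39, 1.19 and 1.15 times the background in BT483, 1.51, 1.27 and 1.34 in SUM44, and 0.93, 0.96 and 1.07 in GM06990. The fifth, from 126929127 to 126934549, lay 952 kb from the capture. It held 61 and 249 contacts in BT483, 243 and 205 in SUM44, and 63 and 48 in GM06990, which was 1.34, 1.097 and 0.81 times the background. The lowest tested fragment, from 127816125 to 127817400, had 4 and 26 contacts in BT483, 32 and 47 in SUM44, and 5 and 1 in GM06990, under 0.1 times the background in each line although it was only 69.4 kb from the capture. The fragments from 127355593 to 127357477 and from 127213540 to 127215427 were also low in every line, at 0.051 and 0.10 times in BT483, 0.094 and 0.13 in SUM44, and 0.053 and 0.073 in GM06990.

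At the centromeric end, signed changes were lower in the fragments just outside the interval than in 2 of the 3 just inside it. The last 3 fragments outside, from 126740851, 126741494 and 126745992, had log2 changes of -0.47, -1.47 and 0.04 for BT483 over GM06990 and of 0.13, 0.05 and 0.08 for SUM44. The first 3 inside, from 126753306, 126754896 and 126755058, had -0.05, 1.61 and 1.18 for BT483 and 0.53, 1.88 and 1.08 for SUM44. At the telomeric end the members run up to the capture, where the last 3, from 127865674, 127872851 and 127873161, had 0.71, 1.33 and 0.87 for BT483 and 0.62, 1.00 and 0.56 for SUM44.

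The breast lines were also set against each other, a contrast that the choice of the interval did not use. In the same edgeR fit, 5 of the 344 fragments were lower in BT483 than in SUM44 at an adjusted p under 0.05, where 0.201% of all fragments were lower, and none was higher, where 0.0915% were. Unadjusted, 73 of the 344 passed 0.05 in either direction, beside 839 of all 5466 fragments and 513 of the 2727 tested at 8q24.21. The median log2 change was -0.20, against -0.01 over all fragments, with 265 negative and 79 positive values. Of the 5, 4 formed 2 pairs of neighbouring fragments on the capture side of FAM84B.

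The first pair adjoined the fragments beside FAM84B that were as high as the gene. The fragment from 127583272 to 127588709 had 22 and 178 contacts in BT483 against 412 and 387 in SUM44, or 0.42 ± 0.16 and 1.13 ± 0.032 times the background (SD, n = 2). Its log2 change was -1.28 ± 0.22 (SE, edgeR adjusted p = 0.0157). Its neighbour from 127581726 to 127583271 had 24 and 209 contacts in BT483 against 446 and 352 in SUM44, a log2 change of -1.07 ± 0.21 (edgeR adjusted p = 0.0334). In GM06990 the pair had 0.56 and 0.54 times the background, so both BT483 means lay nearer to GM06990 than to SUM44. At the FAM84B start, 11.8 kb from the middle of that neighbour, BT483 over SUM44 was -0.13 ± 0.20 with an edgeR adjusted p of 0.797, a difference within the error of the fit.

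The second pair lay 89.2 kb and 90.9 kb from the FAM84B start. The fragment from 127659397 to 127660431 had 14 and 99 contacts in BT483 against 312 and 237 in SUM44, with a log2 change of -1.50 ± 0.22 (edgeR adjusted p = 0.00224). The fragment from 127660432 to 127662714 had 22 and 129 in BT483 against 274 and 240 in SUM44, with -0.98 ± 0.20 (edgeR adjusted p = 0.0357). The single fragment from 127193665 to 127195053, on the far side of FAM84B, had 22 and 127 in BT483 against 254 and 224 in SUM44, with -0.97 ± 0.20 (edgeR adjusted p = 0.0357). In all 5 fragments both BT483 replicates lay below both SUM44 replicates relative to the background. These 5 were called on the same libraries, so that order follows largely from the choice and adds no support. DESeq2 on the same counts and offsets called 2 of the stretch, and the fit without the first SUM44 replicate called 1. Without the second SUM44 replicate it called 2, without the first BT483 replicate 13 and without the second 27.

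Where in the captured region the contacts came from also differed between the breast lines and GM06990. The capture, 127886760 to 128470692, was cut into 6 parts of equal length, numbered from the end next to the stretch. In BT483 the contacts with the stretch amounted to 0.589 ± 0.110 times the background from part 1, 0.577 ± 0.0130 from part 2, 0.693 ± 0.00801 from part 3, 0.734 ± 0.00971 from part 4, 0.738 ± 0.0112 from part 5 and 0.839 ± 0.0610 from part 6 (SD, n = 2). In SUM44 they amounted to 0.735 ± 0.00792, 0.656 ± 0.00397, 0.734 ± 0.0213, 0.830 ± 0.0107, 0.877 ± 0.0121 and 1.01 ± 0.0231 in the same order. In GM06990 they stayed between 0.357 and 0.479, with 0.421 ± 0.0730 from part 1 and 0.364 ± 0.00707 from part 6. The ratio of BT483 to GM06990 was 1.40 in part 1 and 2.30 in part 6, and that of SUM44 to GM06990 was 1.75 in part 1 and 2.76 in part 6.

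**Figure D4:**
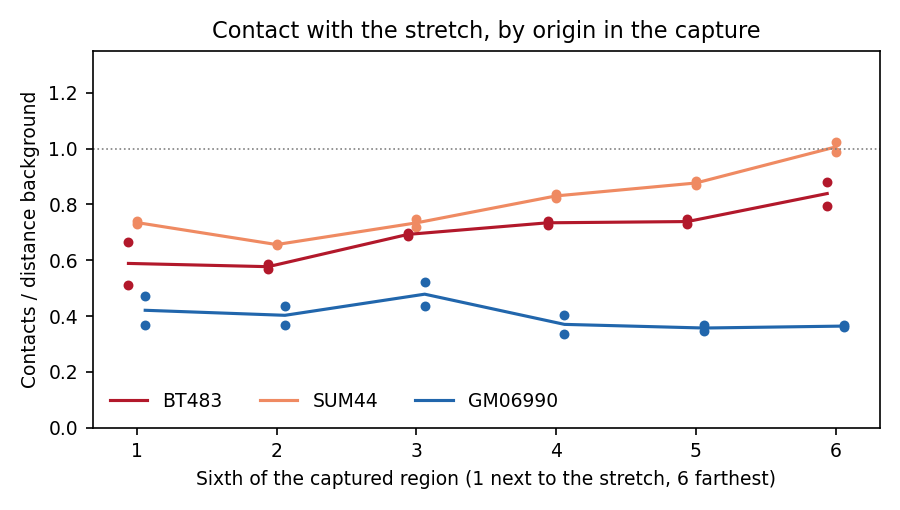
Contacts with the stretch over the distance background, by the sixth of the captured region they came from (1 next to the stretch, 6 farthest). Points are replicates and lines are means of 2; SUM44 and BT483 are highest in part 6, at 1.01 and 0.839, where GM06990 is at 0.364.

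The same held in plain shares. The telomeric parts 4 to 6 of the capture, the far ones, supplied 46.6% and 46.9% of the contacts with the stretch in BT483, 46.4% and 46.7% in SUM44, and 31.7% and 35.8% in GM06990. Their share of the trans contacts was between 48.4% and 51.3% in all 6 libraries. To the telomeric stretch they are the near ones, and they supplied 60.3% and 54.3% in BT483, 54.1% and 54.1% in SUM44, and 65.9% and 69.5% in GM06990. In GM06990 the contacts of the capture were thus more strongly tied to the nearer side than in the breast lines, for both neighbours. No test was made, since the interval had been chosen on this contrast.

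Most captured fragments had contacts with the stretch. Of 192 captured fragments on chromosome 8, 186 had at least 50 contacts with it in 1 line, and 1 had none. Relative to the background, all 4 breast replicates lay above both GM06990 replicates in 159 of the 186. That count restates the contrast the interval was chosen on, and captured fragments share their libraries. No like count was made for another stretch. The captured fragments with the highest contact for their distance were those from 128192178 to 128201573 and from 128171973 to 128182972, with 1.11 and 1.04 times the background in BT483, 1.42 and 1.34 in SUM44, and 0.804 and 0.860 in GM06990. The fragments from 128314311 to 128319325, from 128342869 to 128358578 and from 128155018 to 128163621 came next, at 0.881, 1.00 and 0.942 in BT483, 1.41, 1.30 and 1.11 in SUM44, and 0.811, 0.617 and 0.730 in GM06990. The 5 lowest, which begin at 127936415, 128079859, 128188467, 128065195 and 128369078, were all shorter than the highest and stood between 0.270 and 0.517 in BT483, 0.200 and 0.557 in SUM44, and 0.152 and 0.255 in GM06990.

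No single pair of a captured fragment and a fragment of the stretch was called, in a test that called few pairs anywhere. Of 66432 pairs, 0 passed a one-sided negative binomial adjusted p of 0.01 with at least 5 contacts in BT483, in SUM44 or in GM06990. At the whole locus, 0.000173%, 0.00069% and 0.00275% of pairs passed. The background was fitted over both sides of the capture, and the stretch as a whole lay below it in every library. A call in the stretch was therefore unlikely from the start, and its absence does not show that no pair is raised. At an unadjusted negative binomial p under 0.05 with at least 5 contacts there were 277 pairs in BT483, 541 in SUM44 and 37 in GM06990. The floor of 5 contacts makes these counts depend on depth, and no like count was made for the whole locus. A Poisson background, which allows no spread beyond counting, called 1, 49 and 7 pairs of the stretch, out of 142, 1024 and 1195 called at the whole locus. The fragment from 127835410 to 127841677 was the target in 2 of the 5 lowest p in BT483, in 3 of 5 in SUM44 and in 2 of 5 in GM06990. The strongest of these in SUM44 joined it to the captured fragment from 128402868 to 128406789, with 11 and 7 contacts where 3.28 were expected over both replicates. The differences between lines above were thus measured on sums over captured fragments, and no single pair of the stretch was called in any line.

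Trans contacts gave a readout that the choice of the interval did not use: read pairs that joined 5 other captured regions, on chromosomes 2, 3, 9, 16 and 18, to the stretch. In 22 windows of 50 kb, outside the one that reaches the capture, the stretch received 77.8 and 89.0 of each 100000 trans contacts of those regions in BT483, 46.0 and 50.4 in SUM44, and 48.8 and 51.4 in GM06990. The counts behind these were 714 and 2240 in BT483, 516 and 568 in SUM44, and 581 and 1311 in GM06990. BT483, at 83.4 ± 7.89, stood above the other lines, and SUM44, at 48.2 ± 3.14, and GM06990, at 50.1 ± 1.86, overlapped (SD, n = 2).

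Taken as 1 bin of 1.1 Mb among 2589 such bins of the genome, the stretch differed by a log2 change of 0.74 ± 0.12 (SE) for BT483 over GM06990, with an edgeR adjusted p of 0.00762. Of all bins, 36.8% passed in that comparison. BT483 over SUM44 gave 0.79 ± 0.12 with an edgeR adjusted p of 0.00393, where 45.8% of bins passed. SUM44 over GM06990 gave -0.06 ± 0.12 with an edgeR adjusted p of 0.725, where 46.0% passed. So many bins differed between these lines that a call is common, and the stretch ranked 169th from the top for BT483 over GM06990. The call for BT483 over GM06990 was lost without the first or the second GM06990 replicate, with log2 changes of 0.70 and 0.78. That for BT483 over SUM44 was lost without the first SUM44 replicate, with a log2 change of 0.73. In these settings fewer bins passed over the whole genome too, so the loss was not particular to the stretch.

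Single windows gave the same order. For BT483 over GM06990, 5 of 22 windows were higher and none lower, where 3.8% and 3.62% of 41749 windows were. At an unadjusted edgeR p under 0.05 there were 17 of the 22, beside 11827 of all windows. All 22 log2 changes were positive, between 0.44 and 1.12 with a median of 0.71. For BT483 over SUM44, 10 of 22 were higher, where 7.19% were, and none lower, where 7.38% were, with a median of 0.82. For SUM44 over GM06990 edgeR called 0 in either direction, where 7.05% were higher and 8.58% lower, and the median was -0.12. Here 3 passed an unadjusted edgeR p of 0.05, beside 13555 of all windows, and DESeq2 called 0 as well. Leaving out either SUM44 replicate or either GM06990 replicate reduced the 5 windows to 0. The 10 windows of BT483 over SUM44 fell to 0 without the first SUM44 replicate, to 1 without the second and to 6 without either GM06990 replicate, and numbered 18 without the first BT483 replicate. DESeq2 called 1 of the 5 and 2 of the 10. The window that holds FAM84B had 16 and 70 trans contacts in BT483, 19 and 22 in SUM44, and 8 and 46 in GM06990, and passed in none of the 3 comparisons.

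By captured region, both BT483 replicates lay above both GM06990 replicates for 5 of 5 regions and above both SUM44 replicates for 4 of 5, the exception being the chromosome 16 region. The regions share their libraries, and no like count was made for another stretch. The 2q35 region of chromosome 2 had the widest gap, with 119 and 97.4 per 100000 in BT483, 37.7 and 48.1 in SUM44, and 58.2 and 54.9 in GM06990. The chromosome 16 region had the narrowest, with 55.7 and 74.985 in BT483, 53.1 and 57.1 in SUM44, and 40.5 and 47.4 in GM06990. The telomeric stretch of the same length had median trans changes of 0.78 for BT483 and 0.46 for SUM44 over GM06990. For BT483 over GM06990 all 22 of its windows were positive, as in the FAM84B stretch. Of its 22 windows, 7 were called higher for BT483 over GM06990, 3 for SUM44 over GM06990 and 1 for BT483 over SUM44, and none lower. At an unadjusted edgeR p under 0.05 there were 18, 8 and 4 in the same order. In BT483 the trans change of the stretch, 0.74, thus stood beside a median cis change of 0.82, and its part in the cis change was not tested. In SUM44 the trans change was -0.06 beside a median cis change of 1.01.

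**Figure D5:**
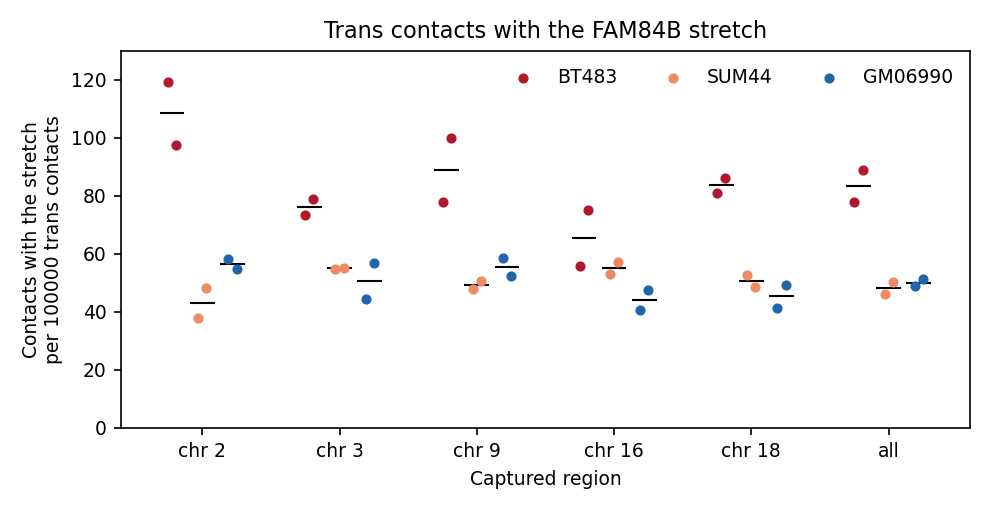
Trans contacts of the captured regions on 5 other chromosomes with the stretch, per 100000 trans contacts of the region, for BT483, SUM44 and GM06990. Points are replicates and lines are means of 2; BT483 lies above GM06990 for each region, and SUM44 and GM06990 overlap for all regions together.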

How the data were processed

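Per the file headers, the authors deposited, for each line, counts of ligated read pairs between captured and other HindIII fragments with 1 column per replicate, not normalized, and the trans count of each captured fragment. Per the submitters' processing notes, CASAVA 1.8 and GRCh37 (hg19) were used; the aligner and filters are not given in the sources used here. Counts within the captured regions were not used. Reads carried no molecular identifiers, so intervals cover counting error only. The members, named items and comparisons were chosen with earlier results of these data known.

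Background: for each replicate and locus a negative binomial regression, with the log of each captured fragment's trans count and log10 distance as a cubic spline (4 knots) as terms, fitted by step-halved Fisher scoring (Python 3.11.15, numpy 2.4.6, scipy 1.17.1). Fragments were summed over captured fragments and tested with edgeR 4.0.16 (glmQLFit and glmQLFTest, R 4.3.3) over all 3 lines, Benjamini-Hochberg adjusted over 5466 fragments with at least 50 contacts in 1 line, threshold 0.05. Trans windows used trans totals as library size. The single 1.1 Mb bin and the split by fragment length were added after the data had been seen. Fragments named are those at and beside FAM84B, the 5 highest and 5 lowest over background, those that differed between BT483 and SUM44, and 3 on either side of each end; windows, captured fragments and pairs were named by rank. Fragments outside these that are singled out were chosen after their values were seen. Alternatives were DESeq2 1.42.0, other scalings, no minimum, a replicate block and leaving out each replicate. Both tests were tested on simulated counts with known changes.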

Additional observations from a re-analysis of the deposited data

Results flagged for a closer look

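In 5 fragments of the stretch BT483 and SUM44 differed relative to their backgrounds by the edgeR test of the difference itself. The log2 changes, BT483 over SUM44, were -1.50 for the fragment from 127659397 to 127660431, -1.28 for that from 127583272 to 127588709, -1.07 for that from 127581726 to 127583271, -0.98 for that from 127660432 to 127662714 and -0.97 for that from 127193665 to 127195053. In the first of these BT483 had 14 and 99 contacts and SUM44 312 and 237.

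Trans contacts with the stretch differed between BT483 and SUM44 in the opposite direction, with a log2 change of 0.79 over 22 windows. The windows that begin at 126850001 and 127350001, with 1.23 and 1.68, were among the 10 called. The window at 127350001 had 36 and 96 contacts in BT483 and 9 and 18 in SUM44.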

How the results depend on the processing

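Counts per fragment and pair were low, and 2 replicates per line limited every call. Scaled to near cis totals, trans totals or TMM in place of the distance background, the median cis change of the stretch for BT483 over GM06990 was 0.69, 0.22 and 0.49; for SUM44 over GM06990 it was 0.92, 2.26 and 0.98. Trans totals moved the median of all fragments as well, to -0.11 and 1.57, leaving the stretch 0.33 and 0.69 above it, against 0.76 and 0.93 with the background. For BT483 over SUM44, near cis totals, trans totals, TMM, DESeq2 and the replicate block called 9, 334, 92, 2 and 3 fragments, all lower; the median of all fragments was then 0.14, -1.66, -0.13, -0.01 and -0.02. Leaving out 1 replicate at a time gave 1 to 27.

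Trans windows called for BT483 over GM06990 numbered 3 without a minimum, 1 by DESeq2, 3 with the replicate block and 0 to 16 with 1 replicate left out. For SUM44 over GM06990, leaving out 1 replicate gave 0 to 2, and for BT483 over SUM44 0 to 18, where DESeq2 called 2. As 1 bin, the change ranged with 1 replicate left out over 0.63 to 0.82 for BT483 over GM06990, 0.69 to 0.88 for BT483 over SUM44 and -0.12 to 0.0093 for SUM44 over GM06990; TMM gave 0.14 for the last, where the median over all bins was 0.02 in place of -0.17. Pairs of the stretch called with a Poisson background were 1 in BT483, 49 in SUM44 and 7 in GM06990, out of 142, 1024 and 1195 at the whole locus. The share of the stretch was 8.95%, 14.4% and 7.41% of all cis contacts outside the capture in BT483, SUM44 and GM06990, and 23.4%, 27.8% and 15.5% within 2 Mb.

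Of 62 log2 changes of named fragments, 22 changed sign in at least 1 setting: 18 of 28 for BT483 over GM06990, 3 of 28 for SUM44 over GM06990 and 1 of 6 for BT483 over SUM44. By setting, 13 did so with trans totals, 10 with near cis totals, 10 with TMM and 11 with some replicate left out, and 0 with DESeq2, without a minimum or under the block. Among them, for BT483 over GM06990, trans totals gave -0.15 for the fragment from 127560005, -0.060 for that from 127572752, -0.28 for that from 127865674 and -0.56 for that from 127841678, the last also -0.015 with near cis totals and -0.15 with TMM. The FAM84B start gave -0.75 to 0.14 for BT483 over SUM44 with 1 replicate left out, the highest without the first BT483 replicate. The causes were not tested. Same-numbered replicates did not deviate together (correlations between -0.055 and 0.055), so the replicate numbers were not taken as pairs; under the block the median cis changes were 0.82 and 1.02.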
